A study of Mus musculus with 6 samples.

Results

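Pcna and 6 genes whose proteins work with it at the replication fork were followed across germ cells of fetal mouse testes with and without the retinoblastoma gene Rb1. The 7 genes, of 27998 in the deposited count table, were Pcna, 2810417H13Rik (named Pclaf in current annotation and called so from here on), Fam111a, Dtl, Chaf1a, Chaf1b and Tipin. They were chosen by name, with results of these data in view: Pclaf and Fam111a had already been seen to stand higher in all Rb1 cKO samples. Levels in Rb1 cKO and control samples are therefore described below and carry no test for these 7 genes.

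PCNA is a ring-shaped clamp that encircles DNA and holds polymerases and other enzymes at the replication fork, and many of its partners dock in the same groove of the ring through a short peptide motif. PCLAF is a small protein that binds PCNA in replicating cells, and FAM111A is a chromatin-bound protease that binds PCNA. DTL is the substrate receptor of a ubiquitin ligase that destroys proteins while they sit on DNA-bound PCNA. CHAF1A and CHAF1B are subunits of chromatin assembly factor CAF-1, which is recruited by PCNA and places histones on new DNA, and TIPIN is the partner of TIMELESS in the complex that steadies the fork. RB1 restrains E2F transcription factors, whose known targets include many replication genes, and fetal male germ cells leave the cell cycle at about the stage sampled here.

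The samples were 3 labelled Rb1 cKO (conditional knockout) and 3 controls labelled wildtype, all male, at embryonic day 14.5, on a background that mixed C57/B6 with 129. Cells were sorted for the red fluorescent protein tdTomato and profiled with 10x Genomics v2 chemistry, in which 3′ transcript ends are sequenced and molecules are counted by unique molecular identifiers (UMIs). The labels give neither the deleted part of Rb1, nor the Cre driver, nor what drives tdTomato. They also do not say whether replicates were separate animals or litters, so every test below measures the spread among these 6 samples alone, and that spread may be technical.

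After filtering, 430 to 1354 cells and 7598511 to 17323152 UMIs were left per sample, and 9 barcode sequences occurred in more than 1 library. All levels are UMI counts scaled to library size (CPM), summed over the cells of a sample, scaled by TMM normalization unless stated otherwise. In such sums, fewer cells with a transcript and fewer transcripts per cell cannot be told apart. Rb1 itself had 3.36, 3.71 and 3.64 CPM in the Rb1 cKO samples, against 10.4, 8.58 and 7.14 CPM in controls, from 27 to 60 and 67 to 119 UMIs. The groups did not overlap, but edgeR's quasi-likelihood test did not call the difference (log2 fold change -1.27 ± 0.19 SE, adjusted p = 0.415), and 3′ reads may lie outside the deleted part. All 7 germ cell markers were detected, summing to 8312 to 9378 CPM in Rb1 cKO and 8463 to 9954 CPM in control samples. The 5 erythroid markers summed to 2.49 to 19.7 CPM in Rb1 cKO samples and 21.1 to 29.1 CPM in controls. The 6 macrophage markers summed to 0.373, 0.789 and 2.18 CPM in Rb1 cKO samples and 2.57, 47.8 and 4.08 CPM in controls, where 357 of the 358 Pf4 UMIs of control 2 lay in 1 cell. Both lists were lower in every Rb1 cKO sample, with no marker of either at 0 over all samples, and their part in the differences below was not tested. The 6 Sertoli cell markers summed to 5.51 to 8.52 CPM in Rb1 cKO samples and 4.22 to 19.6 CPM in controls, with the highest value in control 3.

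The genes lie on 6 mouse chromosomes (GRCm38, equivalent to mm10, GENCODE M21). Pcna spans chr2:132249162-132253314 on the minus strand and Dtl spans chr1:191537356-191575544 on the minus strand. On the plus strand are Pclaf (chr9:65890237-65903266), Tipin (chr9:64281581-64305424), Fam111a (chr19:12545740-12589768), Chaf1a (chr17:56040439-56072289) and Chaf1b (chr16:93883901-93906115). Pclaf overlaps Trip4, Chaf1a overlaps Ubxn6, and Fam111a overlaps A330040F15Rik and Gm16274, each on the opposite strand. The sources used here do not state whether counting used strand, so reads of these overlapping pairs may not have been told apart. On the same strand, where strand cannot separate reads, Pclaf overlaps Gm23248, Chaf1b overlaps Gm49617 and Tipin overlaps Gm24289.

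Promoters are shown because E2F factors bind short GC-rich sites close to the start of many replication genes. RefSeq promoter windows (GRCm38.p6) were found for 6 of the 7 genes, all but Tipin. Each line gives 150 bases before the start and 30 after it, 5′ to 3′ on the gene's strand, and the capitals mark matches to the E2F letters described after the lines. They are the promoters of the clamp, of the members with the largest differences between groups, and of the others with such a match in the 150 bases before the start.
Pclaf, chr9:65890173-65890352, plus strand: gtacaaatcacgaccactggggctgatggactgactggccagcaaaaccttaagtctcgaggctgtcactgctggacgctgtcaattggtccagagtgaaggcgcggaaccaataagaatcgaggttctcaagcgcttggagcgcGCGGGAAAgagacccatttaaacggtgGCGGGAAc
Fam111a, chr19:12573360-12573539, plus strand: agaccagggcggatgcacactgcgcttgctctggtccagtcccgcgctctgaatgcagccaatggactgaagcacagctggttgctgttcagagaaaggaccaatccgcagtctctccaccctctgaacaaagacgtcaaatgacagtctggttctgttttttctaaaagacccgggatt
Pcna, chr2:132253151-132253330, minus strand: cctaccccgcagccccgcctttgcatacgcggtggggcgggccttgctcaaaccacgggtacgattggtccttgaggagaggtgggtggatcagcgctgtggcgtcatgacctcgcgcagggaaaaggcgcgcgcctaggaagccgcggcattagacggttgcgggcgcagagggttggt
Dtl, chr1:191575515-191575694, minus strand: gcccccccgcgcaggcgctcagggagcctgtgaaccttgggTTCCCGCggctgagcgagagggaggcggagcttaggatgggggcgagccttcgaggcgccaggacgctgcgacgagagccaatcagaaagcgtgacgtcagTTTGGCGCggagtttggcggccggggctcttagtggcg
Chaf1a, chr17:56040266-56040445, plus strand: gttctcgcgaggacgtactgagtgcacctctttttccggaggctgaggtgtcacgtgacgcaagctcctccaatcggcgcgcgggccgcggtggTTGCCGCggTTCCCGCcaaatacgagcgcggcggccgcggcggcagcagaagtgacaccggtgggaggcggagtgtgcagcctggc

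Both strands of each 300-base RefSeq window were searched for TTTCCCGC, TTTCGCGC, TTTGCCGC or TTTGGCGC, and for the same letters without the first T, which overlap the longer matches. With the start as base 1, Pclaf held a longer match whose first base was -5 and Dtl 1 whose first base was -8. Of 32851 promoter windows, 2.26% held one. The shorter letters occurred in 9.57% of windows, and in Pclaf (first bases -5 and 23), Dtl (-109 and -7), Chaf1a (-56 and -47) and Chaf1b (-227 and 27). No match was found in the Pcna and Fam111a windows, which says only that these letters are not there. The Fam111a windows lie inside the gene span given above, and the sequence at the start of that span was not searched. CCAAT, on either strand, occurred in all of these genes but Chaf1b and in 37.4% of windows, and TTTGAA occurred in none of them and in 17.9% of windows. A match describes the sequence and is not evidence of binding.

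Over all cells, 6 of the 7 genes were higher in every Rb1 cKO sample than in every control, and Pcna was not. Pclaf was 1.498-fold and Fam111a 2.44-fold higher on average, while Dtl, Chaf1a, Chaf1b and Tipin differed by 1.12-fold to 1.24-fold and Pcna by 1.02-fold. Of 11540 genes tested, 4.58% were higher in every Rb1 cKO sample and 4.32% lower, and nothing is read from the members' count because this contrast chose them. By edgeR, 0 of the 11540 genes (0%) had an adjusted p under 0.05. An unadjusted p under 0.05 was reached by 205 higher and 200 lower genes, together a share of the genes tested below 0.05. DESeq2 called 4 of 11537 (0.0347%).

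The clamp itself had 173.8, 134.7 and 176.1 CPM in the Rb1 cKO samples, against 175.3, 158.9 and 140.2 CPM in controls. The groups overlapped throughout, with the lowest of all 6 values in Rb1 cKO 2 and the next lowest in control 3. Mean Pcna was 162 ± 23.2 CPM in Rb1 cKO and 158 ± 17.6 CPM in control samples (SD, n = 3 each), a log2 fold change of 0.03 ± 0.12 (SE) that turned negative in 3 of 13 alternative analyses. The counting error was smaller than this spread: the 1708 UMIs of Rb1 cKO 2 allow 128 to 141 CPM (95% exact Poisson interval, counting error only).

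Of the proteins that dock on the clamp, Pclaf had 49.3, 54.7 and 55.0 CPM in the Rb1 cKO samples, against 37.1, 35.2 and 34.0 CPM in controls. The lowest value of the Rb1 cKO samples, in replicate 1, stood above the highest control, also replicate 1. The means were 53.0 ± 3.21 CPM in Rb1 cKO and 35.5 ± 1.53 CPM in control samples (SD, n = 3 each), a log2 fold change of 0.58 ± 0.09 (SE) from 275 to 907 UMIs per sample.

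Fam111a was sparse, with 6.22, 6.15 and 8.24 CPM in the Rb1 cKO samples, against 3.21, 1.92 and 3.18 CPM in controls. These levels rest on 50, 78 and 136 UMIs in Rb1 cKO and 35, 15 and 53 UMIs in control samples. The groups stood apart, with the highest value in Rb1 cKO 3 and the lowest in control 2. Mean Fam111a was 6.87 ± 1.19 CPM in Rb1 cKO and 2.77 ± 0.737 CPM in control samples (SD, n = 3 each), a log2 fold change of 1.29 ± 0.24 (SE).

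Dtl, the receptor that recruits PCNA-bound substrates for ubiquitylation, had 84.1, 85.8 and 79.1 CPM in the Rb1 cKO samples, against 74.9, 71.7 and 66.8 CPM in controls. The gap between the nearest samples, Rb1 cKO 3 and control 1, was within counting error, with intervals of 74.9 to 83.5 and 69.8 to 80.2 CPM. Mean Dtl was 83.0 ± 3.48 CPM in Rb1 cKO and 71.1 ± 4.11 CPM in control samples (SD, n = 3 each; log2 fold change 0.22 ± 0.08 SE).

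Both CAF-1 subunits stood a little higher. Chaf1a, the subunit that contacts PCNA, had 70.8, 73.6 and 70.7 CPM in the Rb1 cKO samples, against 66.2, 61.4 and 65.0 CPM in controls (log2 fold change 0.16 ± 0.07 SE). Chaf1b had 53.7, 53.4 and 63.4 CPM in the Rb1 cKO samples, against 44.8, 42.7 and 50.3 CPM in controls (log2 fold change 0.31 ± 0.10 SE). Neither pair of groups overlapped, and replicate 3 held the highest Chaf1b value in each group. For both genes the gap between the nearest samples was within counting error. The Chaf1a intervals were 66.7 to 74.9 CPM in Rb1 cKO 3 and 61.4 to 71.2 CPM in control 1. Those of Chaf1b were 49.5 to 57.6 CPM in Rb1 cKO 2 and 47.0 to 53.8 CPM in control 3.

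Tipin had 210.5, 237.2 and 216.3 CPM in the Rb1 cKO samples, against 200.3, 175.4 and 173.0 CPM in controls. The groups did not overlap, and control 1 lay nearer to the Rb1 cKO samples than to the other controls. Its gap to Rb1 cKO 1 was within counting error, with intervals of 192.0 to 208.9 CPM in control 1 and 200.6 to 220.8 CPM in Rb1 cKO 1. Mean Tipin was 221 ± 14.1 CPM in Rb1 cKO and 183 ± 15.1 CPM in control samples (SD, n = 3 each; log2 fold change 0.28 ± 0.08 SE).

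**Figure D1:**
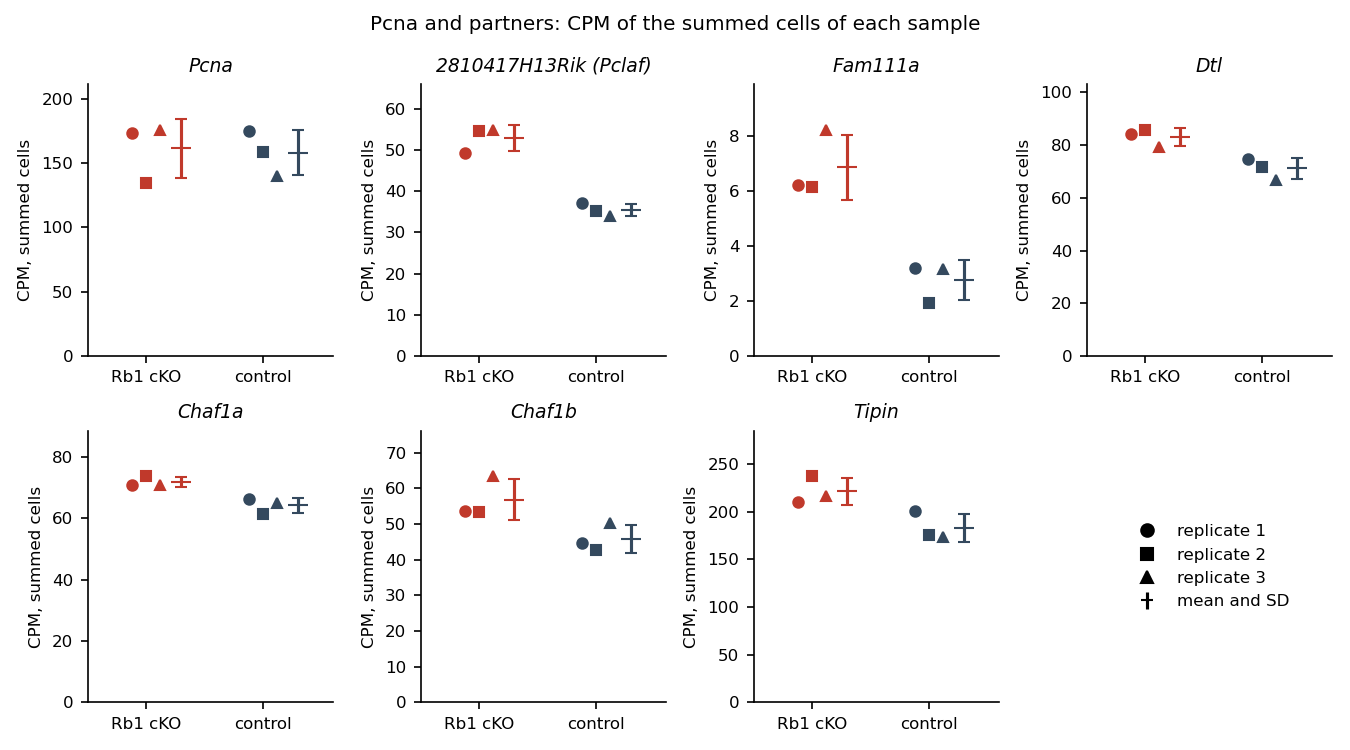
CPM of the summed cells of each sample for the 7 genes, with Rb1 cKO samples left of controls, 1 point per sample, and the mean and SD (n = 3 each) drawn beside the points. The groups overlap for Pcna and stand apart for the other 6 genes.

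The median log2 fold change of the 7 genes was 0.28, against 0.000101 over all 11540 genes, of which 50.1% were positive, and nothing is read from this difference because the contrast chose the members. The order of the members by fold change was Fam111a, Pclaf, Chaf1b, Tipin, Dtl, Chaf1a and Pcna. Chaf1b, Tipin, Dtl and Chaf1a each differed from the next of them by less than 1 standard error.

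The authors grouped the cells in 5 numbered clusters, to which the deposited files give no cell type names. Cluster 0 (2210 cells, 42.9%) was led by Tcf19, Ccne1 and Rrm2, with Pclaf and Chaf1b among its 10 leading genes, and cluster 1 (1863 cells, 36.1%) by the mitotic genes Cdc20, Ccnb1 and Hmmr. Cluster 2 (640 cells, 12.4%) was led by histone genes. Cluster 3 (343 cells, 6.66%) was led by Pf4, Rpgrip1 and Slc39a1, although all 357 Pf4 UMIs of cluster 3 came from the 1 cell of control 2 described above. Cluster 4 (98 cells, 1.90%) was led by Mgarp, Phlda3 and Dcxr. Because the clusters were made from these same cells and genes, levels across clusters are descriptions. Control 3 had 25 cells in cluster 3, or 1.85% of its cells, against 7.04% to 9.42% in the other samples. Over all samples, without TMM scaling, the 5 interstitial stroma markers summed to 20.6 CPM in cluster 3 and 0 to 3.60 CPM in the others. Sertoli cell markers summed to 19.0 CPM in cluster 3 and 7.60 to 9.33 CPM in the others. Their part in the cluster 3 levels below was not tested.

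The 7 genes did not share 1 pattern over the clusters. Every member but Dtl was lowest or next to lowest in the mitotic cluster 1 in both groups. The means of Fam111a, Chaf1a, Chaf1b and Tipin were highest in cluster 0 in both groups. Samples of cluster 0 stood apart from the next cluster for Chaf1b in both groups and for Chaf1a in Rb1 cKO. They overlapped it for Fam111a and Tipin in both groups and for Chaf1a in controls. Fam111a in cluster 3 of the controls rested on 3 UMIs. Dtl was high in both cluster 0 and cluster 1 and lowest in the histone cluster, and Pcna was highest in the histone cluster.

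Pclaf in cluster 0 had 76.0, 85.8 and 79.7 CPM in Rb1 cKO samples and 56.1, 51.0 and 49.0 CPM in controls. In cluster 1 it had 21.6, 21.5 and 23.3 CPM in Rb1 cKO samples and 12.2 to 19.1 CPM in controls, highest in control 3. Within each sample its level in cluster 0 was thus 2.56 to 4.30 times that in cluster 1, with the lowest ratio in control 3. In cluster 2 its means were 54.0 ± 3.12 CPM in Rb1 cKO and 41.5 ± 10.8 CPM in control samples, again without overlap. In cluster 3 the groups overlapped, at 58.4 ± 9.71 CPM in Rb1 cKO and 59.1 ± 11.7 CPM in control samples, and cluster 3 held the highest Pclaf mean of the controls while cluster 0 held that of the Rb1 cKO samples. The control samples of clusters 3 and 0 overlapped, as did those of every neighbouring pair in the control order, and control 3 gave only 12 Pclaf UMIs in cluster 3.

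**Figure D2:**
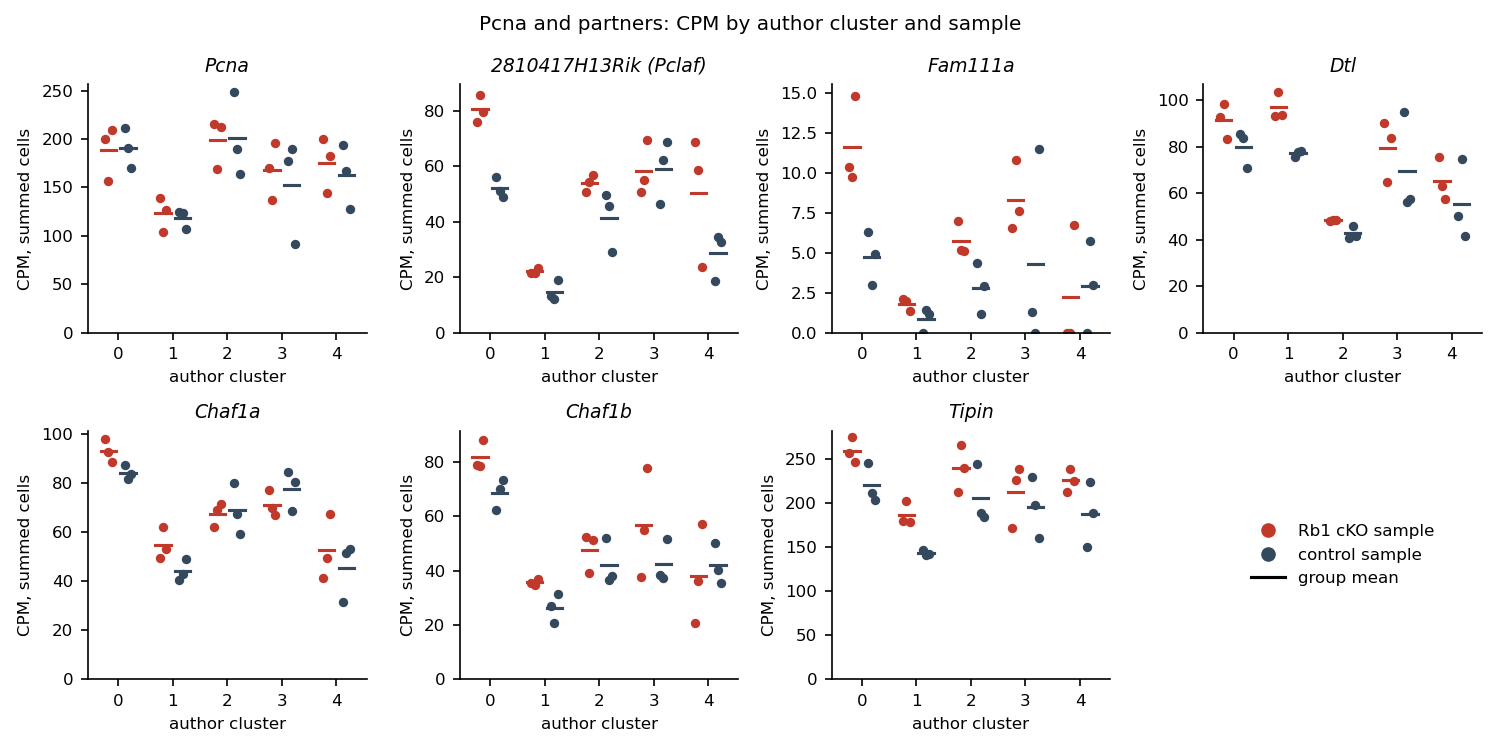
CPM of the summed cells of each sample in each of the authors' 5 clusters, with Rb1 cKO samples left of controls within a cluster, 1 point per sample and a bar at each mean. Pclaf, Chaf1a, Chaf1b and Tipin are low in cluster 1, whereas Dtl is high there and lowest in cluster 2.

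Pcna averaged 199 ± 26.2 CPM in Rb1 cKO and 201 ± 43.5 CPM in control samples in cluster 2, and 188 ± 27.98 CPM in Rb1 cKO and 191 ± 20.9 CPM in control samples in cluster 0. It was lowest in cluster 1, with 124 ± 17.8 CPM in Rb1 cKO and 118 ± 9.95 CPM in control samples. In the order of its 5 cluster means, each cluster's samples overlapped those of the next in both groups. Within a sample, the cluster 0 level was 1.43 to 1.70 times the cluster 1 level.

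Dtl followed neither pattern. Its means in cluster 1 were 96.9 ± 5.83 CPM in Rb1 cKO and 77.2 ± 1.27 CPM in control samples, and in cluster 0 they were 91.5 ± 7.53 CPM in Rb1 cKO and 80.1 ± 8.03 CPM in control samples. In cluster 2 the Rb1 cKO samples had 48.1, 48.6 and 48.5 CPM and the controls 40.8, 45.7 and 41.7 CPM, the lowest Dtl means of the 5 clusters. The ratio of cluster 0 to cluster 1 was 0.890 to 1.13 for Dtl, the only member for which it fell below 1 in any sample.

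Chaf1a averaged 93.1 ± 4.67 CPM in Rb1 cKO and 84.3 ± 2.95 CPM in control samples in cluster 0, and 54.9 ± 6.48 CPM in Rb1 cKO and 44.1 ± 4.38 CPM in control samples in cluster 1. Chaf1b averaged 81.9 ± 5.40 CPM in Rb1 cKO and 68.5 ± 5.71 CPM in control samples in cluster 0, and 35.8 ± 1.12 CPM in Rb1 cKO and 26.3 ± 5.49 CPM in control samples in cluster 1. By their means, the 2 subunits of CAF-1 had the same order of clusters 0, 3 and 2 in both groups. The samples of clusters 3 and 2 overlapped for both subunits in both groups. Control Chaf1b averaged 42.4 ± 8.01 CPM in cluster 3 and 42.2 ± 8.61 CPM in cluster 2. Tipin averaged 260 ± 14.6 CPM in Rb1 cKO and 221 ± 22.0 CPM in control samples in cluster 0, and 187 ± 13.8 CPM in Rb1 cKO and 143 ± 2.86 CPM in control samples in cluster 1.

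Most Fam111a UMIs lay in cluster 0. Cluster 0 gave 32, 49 and 107 of its UMIs in Rb1 cKO samples and 29, 9 and 36 in controls, or 10.3, 9.73 and 14.8 CPM in Rb1 cKO and 6.31, 2.96 and 4.91 CPM in control samples. In cluster 1 it had 6, 8 and 7 UMIs in Rb1 cKO samples and 0, 4 and 7 in controls, and the 0 of control 1 allows up to 0.767 CPM (3 counts). No Fam111a UMI was seen in cluster 3 of control 2, which allows up to 4.67 CPM, nor in cluster 4 of Rb1 cKO 1, Rb1 cKO 2 and control 1, where the limits were 20.7, 13.5 and 18.8 CPM.

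Within clusters, the members higher in every Rb1 cKO sample numbered 5 of 7 in cluster 0, all but Pcna and Dtl, where 4.59% of 10091 genes were so. They numbered 5 in cluster 1, all but Pcna and Fam111a, where 4.43% of 9889 genes were so. Cluster 2 had 3, namely Pclaf, Fam111a and Dtl, beside 4.76% of 7895 genes, and cluster 3 had 0, beside 7.02% of 5996 genes. Cluster 4 had 0 and was not fitted, since some samples had under 20 cells there. These counts share their samples with the contrast that chose the members and are given as description. All 7 genes passed the filter on low counts in cluster 0, and 6 in each of clusters 1, 2 and 3, where Fam111a did not. By edgeR, 0 genes (0%) had an adjusted p under 0.05 in each of the 4 clusters. In cluster 0 an unadjusted p under 0.05 was reached by 198 higher and 194 lower genes, together a share below 0.05.

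Pclaf was the member whose fold change varied most between clusters among those fitted in all 4. Its log2 fold change was 0.64 ± 0.10 (SE) in cluster 0, 0.55 ± 0.19 in cluster 1, 0.44 ± 0.19 in cluster 2 and 0.04 ± 0.22 in cluster 3. Without control 3 it was 0.81 in cluster 1 and 0.18 in cluster 2, and in cluster 3 its sign changed in 5 of 12 alternatives. For Tipin it was 0.24 ± 0.09 in cluster 0 and 0.39 ± 0.09 in cluster 1, and for Dtl 0.20 ± 0.11 and 0.33 ± 0.09 in the same clusters. Pcna stayed between -0.03 and 0.07 in the 4 clusters. Fam111a, fitted in cluster 0 alone, had 1.28 ± 0.28 there.

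**Figure D3:**
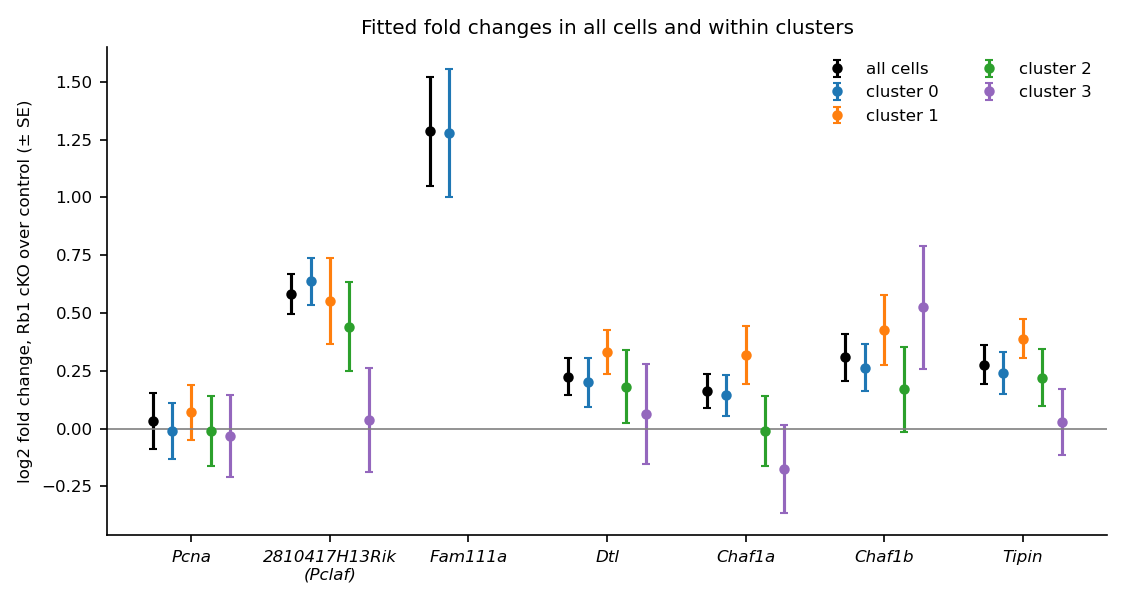
Fitted log2 fold change, Rb1 cKO over control, of the 7 genes over all cells and within clusters 0 to 3, with bars of ± 1 SE. Pclaf stands at 0.64 in cluster 0 and 0.04 in cluster 3, and Pcna lies near 0 throughout.

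Whether the genotype difference depended on the cluster was not used to choose the genes, and it was tested with edgeR as an interaction over clusters 0 to 3, adjusted over 10029 genes. None of the 7 members passed. The joint test called 0 genes (0%), the comparison of cluster 1 with cluster 0 called 1 (0.00997%), that of cluster 2 called 0 (0%) and that of cluster 3 called 1 (0.00997%). At an unadjusted p under 0.05 the last 3 gave 401, 439 and 584 genes. Of the 10029 genes, 401 and 439 are shares below 0.05 and 584 is a share above it. Among members, the smallest adjusted p was that of Pclaf in cluster 3 against cluster 0, a log2 difference of -0.52 ± 0.22 (SE) with an adjusted p of 0.807. For Tipin in cluster 1 against cluster 0 the difference was 0.15 ± 0.07 (SE), with an adjusted p of 0.999. For Pcna the differences were 0.08 ± 0.08, 0.02 ± 0.09 and 0.05 ± 0.13 (SE) in clusters 1, 2 and 3. Those for Fam111a had standard errors of 0.58 to 0.91, so that a difference of that size between clusters was not detectable at its depth.

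The members were also followed over cells ordered by a replication score, the summed CPM of 18 replication genes that include no member. The 5154 cells were divided into 3 equal ranges of 1718 cells at 2278 and 3059 CPM. The score is continuous, and 1012 and 1248 cells lay within 10% of these values. Levels within ranges are CPM without TMM scaling. The high range held 39.0%, 34.2% and 49.5% of the cells of the Rb1 cKO samples, against 29.1%, 30.9% and 20.1% of those of controls. With every cell thinned to 10000 UMIs, which left out 25, 91 and 66 cells of Rb1 cKO and 43, 13 and 218 cells of control samples, the shares were 41.5%, 34.8% and 50.7% in Rb1 cKO and 30.6%, 31.2% and 22.4% in control samples. The groups did not overlap in either, so the sums over all cells held a larger share of high-scoring cells in Rb1 cKO samples. The part of this share in the differences over all cells was not tested. The levels within each range follow as descriptions, since how many of all genes stood apart within a range was not counted.

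Pclaf, Fam111a, Chaf1a, Chaf1b, Tipin and Pcna all climbed with the score, and Dtl did not. In the high range Pclaf had 79.2, 90.5 and 77.9 CPM in Rb1 cKO samples and 64.7, 58.5 and 50.1 CPM in controls, a ratio of means of 1.43 without overlap. In the middle range the groups overlapped, with 43.2, 46.4 and 35.1 CPM in Rb1 cKO and 42.2, 35.7 and 41.6 CPM in control samples, a ratio of 1.04. In the low range Pclaf had 15.7, 23.2 and 21.5 CPM in Rb1 cKO samples and 12.7, 15.2 and 15.1 CPM in controls, a ratio of 1.40 without overlap.

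Fam111a in the high range had 11.5, 10.8 and 13.9 CPM in Rb1 cKO samples and 7.25, 2.44 and 4.95 CPM in controls, a ratio of 2.47 without overlap. In the low range, with 2 to 10 UMIs per sample, the groups overlapped at a ratio of 1.08. In the middle range the ratio was 1.47 with overlap, and 1.97 without overlap once cells were thinned. Chaf1a and Chaf1b overlapped between groups in all 3 ranges, with ratios of 0.947 to 1.09 for Chaf1a and 1.06 to 1.26 for Chaf1b. When cells were instead ranged by their mitosis genes, both stood apart in all 3 ranges, at 1.11 to 1.24 for Chaf1a and 1.23 to 1.36 for Chaf1b. Pcna overlapped in all 3 as well, with ratios of 1.02, 0.931 and 0.951 from low to high.

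Dtl had 97.8, 86.2 and 82.3 CPM in the low range in Rb1 cKO samples and 62.9, 68.8 and 68.0 CPM in controls, apart at a ratio of 1.33, whereas it overlapped in all 3 ranges of the mitosis genes. It overlapped between groups in the middle and high ranges, at ratios of 1.14 and 1.11, though with cells thinned it also stood apart in the middle range, at 1.29. Tipin stood apart in the low range only, at a ratio of 1.25, with 1.09 and 1.17 in the middle and high ranges, but in all 3 ranges of the mitosis genes, at 1.23 to 1.24. Low-scoring cells were those with the most mitotic transcripts: the 18 mitosis genes summed to a median of 4326 CPM per cell there, 3021 CPM in the middle range and 2565 CPM in the high range.

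**Figure D4:**
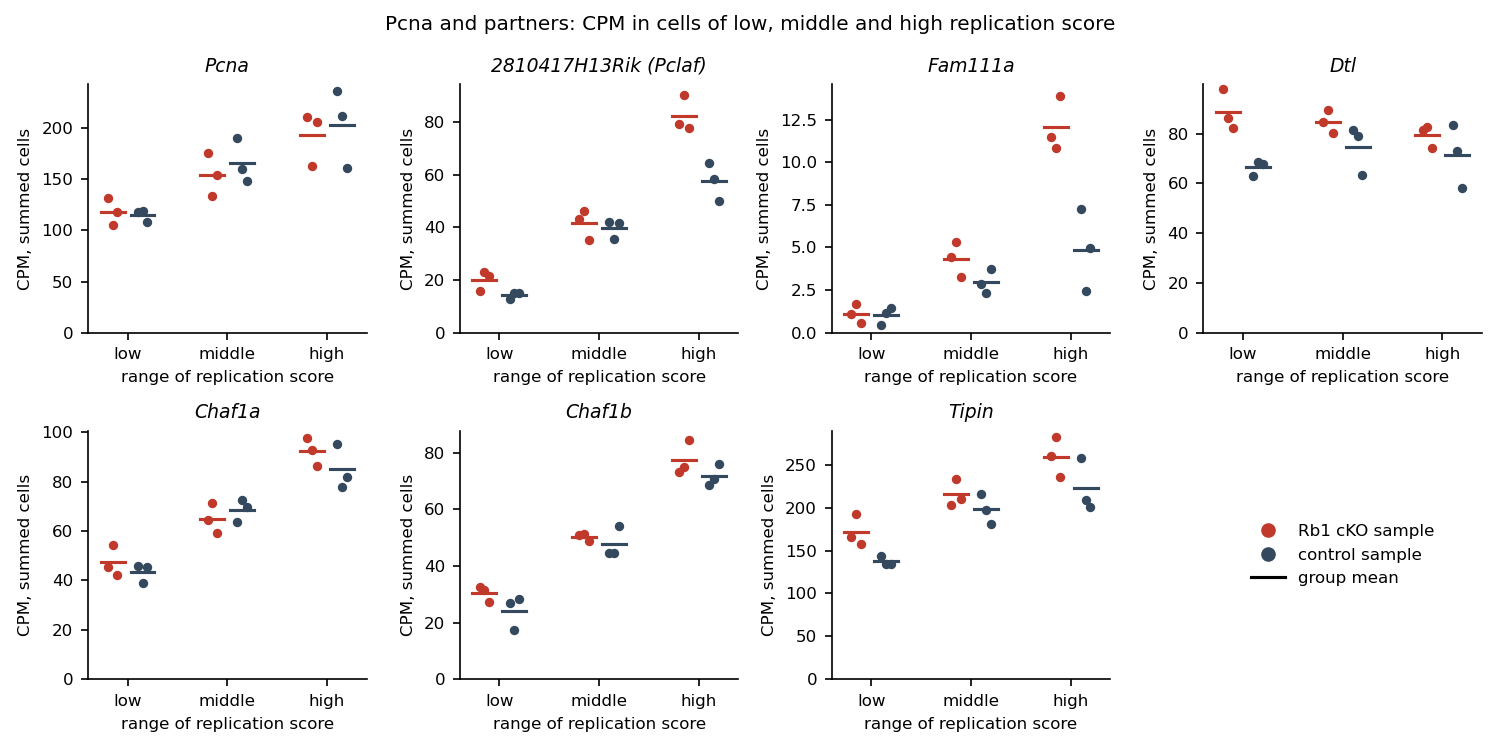
CPM of the 7 genes in cells of the low, middle and high range of the replication score, with Rb1 cKO samples left of controls, 1 point per sample and a line at each group mean. All genes but Dtl climb with the score, and Pclaf and Fam111a separate the groups in the high range.

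Within a range the mean score still differed between samples. In the high range it was 3676, 3641 and 3707 CPM in the Rb1 cKO samples and 3697, 3611 and 3452 CPM in controls, with the lowest value in control 3. In the low range it was 1904, 1825 and 1873 CPM in the Rb1 cKO samples and 1766, 1829 and 1785 CPM in controls. Their part in the differences within ranges was not tested.

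Likeness between genes was measured as Pearson's r of log2(CPM + 1) over 13 control sums, 1 per sample and cluster of at least 20 cells, which share libraries and clusters and so are not independent. Of 5003 genes averaging 20 CPM or more, the 10 most like Pcna were Nup43 (r = 0.925), Meaf6 (0.919), Rpa2 (0.911), 2410002F23Rik, Spice1, 2310033P09Rik, Skp2, Uhrf1, Slmo2 and Ddost (0.874). Of these 10, 5 were also among the 10 most like Pcna over 26 sums of all 6 samples, where Mcm6, 2410002F23Rik and Mcm2 led. The genes most like Pclaf were led by Chaf1a (0.923), Tk1 (0.909), Xrcc6 and Exo1, so that a CAF-1 subunit headed its list.

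Among the members, Tipin was the most like Pcna (r = 0.86, rank 20 of 5003), followed by Chaf1a (0.57), Pclaf (0.47) and Chaf1b (0.46). Dtl (-0.12, rank 3549) had r near 0. Fam111a had -0.02, but with 0 to 36 UMIs in each of the 13 sums, counting error limits every r given for it. Pclaf ran against the summed mitosis genes, with r = -0.81, as did Chaf1b (-0.789), Chaf1a (-0.785), Tipin (-0.618) and Fam111a (-0.585). Pcna had r = -0.25, and Dtl showed no such relation, with r = -0.04. Against the summed replication genes Dtl had r = -0.14, and the other members had 0.40 to 0.87. These are descriptions over the 13 sums.

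Other genes of the PCNA pathway were taken from lists drawn up by function. None of their genes passed the edgeR test, so the lists are described by their values, in log2 fold change over all cells, beside the median of 0.000101 over all genes. Of the clamp loaders, which open the PCNA ring and place it on DNA or take it off, 7 of 9 were positive with a median of 0.14, and Rfc1, Rfc2, Rfc4 and Dscc1 were higher in every Rb1 cKO sample, as were 4.58% of all genes tested. The median of the clamp loaders was 0.09 without Rb1 cKO 3 and also 0.09 without control 2. Rfc1 averaged 200 ± 16.1 CPM in Rb1 cKO and 180 ± 3.07 CPM in control samples, Rfc4 averaged 210 ± 11.5 CPM in Rb1 cKO and 189 ± 3.76 CPM in control samples, and Rfc5 had a log2 fold change of -0.05. Of the enzymes that PCNA holds for replication and repair, 12 of 16 were positive with a median of 0.08. Among them Lig1, which joins lagging-strand fragments, had 0.16 and the uracil-removing Ung 0.07, and Pold3 and Exo1 were higher in every Rb1 cKO sample.

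Of 13 genes for translesion polymerases and PCNA ubiquitylation, 7 were positive with a median of 0.01, whose sign changed in 2 of 13 alternatives. The ubiquitin-conjugating Ube2a, Ube2b and Ube2n had -0.09, 0.10 and 0.05. Rad18, the ligase that acts on PCNA, had 0.22 and was higher in every Rb1 cKO sample, as were 4.58% of all genes tested. Of 8 tested genes of the ligase that Dtl serves, with its targets, 3 were positive with a median of -0.03, whose sign changed in 5 of 13 alternatives, and none was higher in every Rb1 cKO sample. Its adaptor Ddb1 had -0.10 and its RING subunit Rbx1 -0.04, while Gmnn, which holds back the Dtl target Cdt1, had 0.11.

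Of 8 histone chaperones and CAF-1 partners, 7 were positive with a median of 0.06. Nasp, which carries histones, averaged 499 ± 5.93 CPM in Rb1 cKO and 451 ± 25.7 CPM in control samples and was higher in every Rb1 cKO sample, as was Asf1b. The histone binder Rbbp7 had 0.17 and the histone acetyltransferase Hat1 0.07. Of 8 tested fork partners of Tipin, 5 were positive with a median of 0.06. Clspn, which links the fork to the checkpoint, averaged 109 ± 7.54 CPM in Rb1 cKO and 94.6 ± 1.0 CPM in control samples, and Rpa2, a subunit of the single-strand binding complex, averaged 456 ± 18.1 CPM in Rb1 cKO and 418 ± 14.6 CPM in control samples. Both were higher in every Rb1 cKO sample, as was Wdhd1, while Rpa3 had -0.12 and Timeless, the direct partner of Tipin, had -0.09. Of all genes tested, 4.58% were higher in every Rb1 cKO sample.

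As a reference, all 18 replication genes were positive with a median of 0.10, and 6 of them were higher in every Rb1 cKO sample, namely Gins2, Cdc6, Cdc45, Rrm1, Rrm2 and Prim1, beside 4.58% of all genes tested. The most abundant, Hells, Mcm6 and Mcm3, had 0.16, 0.16 and 0.10. Of 18 mitosis genes, 9 were positive with a median of 0.02, whose sign changed in 2 of 13 alternatives, and Cenpf alone was higher in every Rb1 cKO sample, at 631 ± 14.8 CPM in Rb1 cKO and 555 ± 11.7 CPM in control samples. Bub1b alone was lower in every Rb1 cKO sample, at 47.8 ± 1.27 CPM in Rb1 cKO and 51.7 ± 2.27 CPM in control samples, as were 4.32% of all genes tested.

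**Figure D5:**
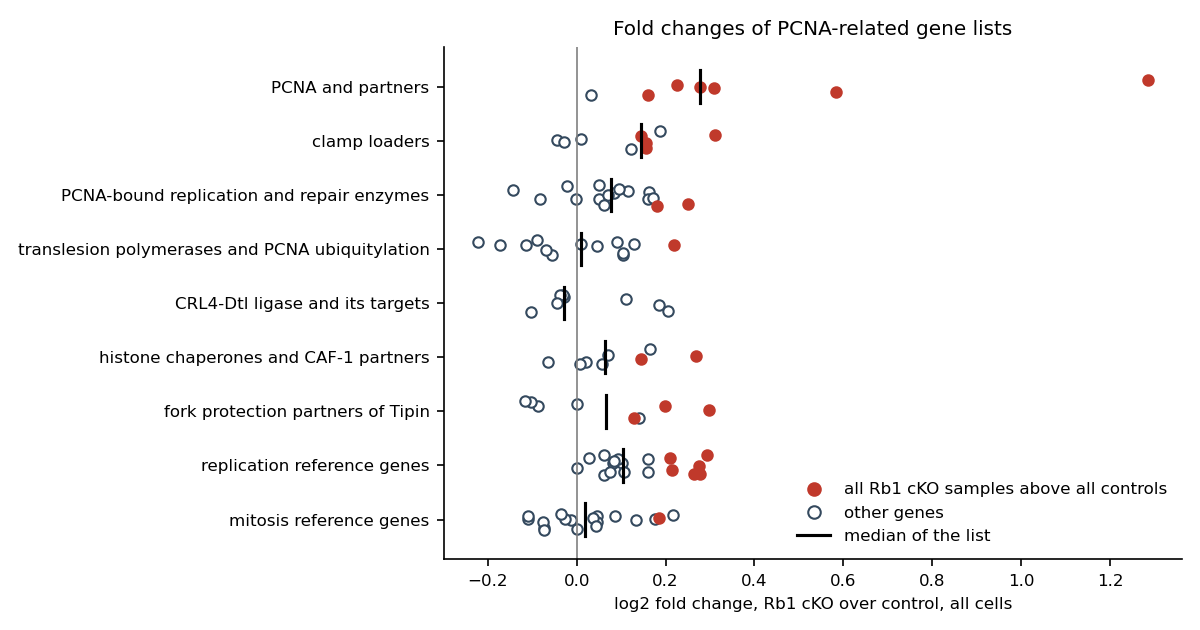
Log2 fold change over all cells, Rb1 cKO over control, of each gene in 8 lists and of the 7 members, with a line at each list's median and filled points where every Rb1 cKO sample lies above every control. Medians run from -0.03 for the Dtl ligase to 0.14 for the clamp loaders, and the members' median is 0.28, but without control 2 the ligase is at 0.08, the clamp loaders at 0.09 and the replication genes at 0.16.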

How the data were processed

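The authors deposited UMI counts per gene and cell barcode, as whole numbers with no row that names no gene, and a second file with the sample and cluster number of each barcode. Per the submitters' processing notes, Cell Ranger, Seurat 3.0 and mm10 were used; the annotation release, aligner settings and filters are not given in the sources used here. Each of the 5160 barcodes named its sample, and 0 columns were left unmapped.

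From these counts, barcodes with fewer than 500 genes or with 10% or more mitochondrial UMIs were left out, 6 in all. Scrublet, run per sample in scanpy 1.11.5, called 151 doublets (2.93%), which were kept and removed in an alternative. Counts were summed per sample, and per sample and cluster, giving 7598511 to 17323152 UMIs per sample. The sums were tested with edgeR 4.0.16 (R 4.3.3; TMM, filterByExpr, robust quasi-likelihood fit, two-sided, Benjamini-Hochberg over all genes tested, threshold 0.05), without a replicate term. The standard errors given with edgeR fold changes were computed from each log2 fold change and the F statistic of its test. For the members, which were chosen on the genotype contrast, they are description. Clusters with at least 20 cells in every sample were fitted. The interaction of genotype with cluster was fitted on sums per sample and cluster, with the sample as a block. The code was tested on simulated data.

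Alternatives were RLE size factors, no filter on low counts, DESeq2 1.42.0, doublets removed, all barcodes kept, equal cell numbers (430 per sample), a replicate block and each replicate left out. For the score ranges they were ranges of the mitosis genes and, chosen after seeing the data, thinning to 10000 UMIs; leaving out replicates for the count of members was also chosen then. The labels do not say whether replicate numbers pair the samples. Deviations from the group means correlated at -0.13, 0.23 and 0.20 between samples numbered 1, 2 and 3. The members, the gene lists and the tests were chosen with earlier results of these data known. Named genes are the members, the 3 most abundant genes of each list, the 10 genes most like Pcna and the 5 most like Pclaf, of which some are not reported here; list genes above every control in all Rb1 cKO samples, and Bub1b and Timeless, are named after their values were seen. Intervals are 95% exact Poisson intervals and limits for a count of 0 use 3 counts, both for counting error only.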

Additional observations from a re-analysis of the deposited data

Results flagged for a closer look

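In 2 of the comparisons between clusters, edgeR's interaction test called 1 gene each, and neither gene is one of the 7. The joint test over clusters 0 to 3 called 0. Both calls depended on single samples. For cluster 1 the count was 0 without Rb1 cKO 3 or without control 2. For cluster 3 it was 0 with doublets removed, without any 1 Rb1 cKO replicate or without control 3. Retn in cluster 1 against cluster 0 had a log2 difference of 2.29 ± 0.35 (SE, adjusted p = 0.00868). Its cluster 1 levels were 3.14, 2.47 and 58.0 CPM in Rb1 cKO samples and 4.35, 2.52 and 12.6 CPM in controls, with the highest value in Rb1 cKO 3. Its cluster 0 levels were 4.85, 2.78 and 19.8 CPM in Rb1 cKO samples and 7.18, 4.93 and 27.0 CPM in controls, so replicate 3 stood highest in both groups in both clusters. Ptn in cluster 3 against cluster 0 had a log2 difference of -5.87 ± 1.22 (SE, adjusted p = 0.0281), a fitted value that rests on counts near 0. Its cluster 3 levels were 3.28, 0 and 0 CPM in Rb1 cKO samples and 7.92, 7.78 and 57.4 CPM in controls. Control 3 had 25 cells in that cluster. There the 5 interstitial stroma markers summed to 6.56, 14.8 and 10.2 CPM in Rb1 cKO samples. In controls they summed to 6.60, 68.5 and 57.4 CPM. Sertoli cell markers summed to 13.1, 44.3 and 2.54 CPM there in Rb1 cKO samples and 2.64, 20.2 and 68.9 CPM in controls. The part of such transcripts in the Ptn difference was not tested.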

How the results depend on the processing

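Over 13 alternatives, the log2 fold changes over all cells ranged from 0.51 to 0.63 for Pclaf, 1.12 to 1.40 for Fam111a, 0.18 to 0.26 for Dtl, 0.14 to 0.20 for Chaf1a, 0.22 to 0.38 for Chaf1b, 0.22 to 0.34 for Tipin and -0.05 to 0.14 for Pcna. Over 12 alternatives, those of Pclaf ranged from 0.59 to 0.69 in cluster 0, 0.45 to 0.81 in cluster 1, 0.18 to 0.62 in cluster 2 and -0.17 to 0.15 in cluster 3. Leaving out 1 replicate cannot lower the number of members higher in every Rb1 cKO sample, 6. It could only have added Pcna, which stayed overlapping with any 1 replicate left out. In the interaction test no member passed the threshold in any of the 10 alternatives, and for Pclaf in cluster 3 against cluster 0 the lowest adjusted p was 0.291, with differences of -0.80 to -0.35.

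Counts of called genes were small and moved, and the cause was not tested. Over all cells the count of 0 became 6 without the filter on low counts, 4 with DESeq2 and 0 to 4 with a replicate left out, with 4 without control 3. In clusters 0, 1, 2 and 3 the counts of 0 became 15, 8, 3 and 17 without the filter, and 0 to 2, 0 to 2, 0 to 2 and 0 to 3 with a replicate left out. The joint interaction count of 0 became 7 without the filter, 2 with doublets removed and 0 to 24 with a replicate left out, with 24 without control 1. For cluster 1 against cluster 0 the count of 1 became 3 without the filter, 2 with doublets removed and 0 to 4 with a replicate left out. For cluster 2 the count of 0 became 1 without the filter and 0 to 1 with a replicate left out. For cluster 3 the count of 1 became 2 without the filter, 0 with doublets removed and 0 to 23 with a replicate left out, with 23 without control 1. By their labels the samples share only a number. With that number as a replicate block the counts were 0 over all cells, 1 in cluster 3 and 7 in the joint interaction. For clusters 1, 2 and 3 against cluster 0 they were 3, 1 and 3. Rb1 cKO 1 correlated best with control 3 (r = 0.12), Rb1 cKO 2 with control 2 (0.23) and Rb1 cKO 3 with control 3 (0.20).

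With cells ranged by the mitosis genes instead of the replication genes, Pclaf stood apart in the low and middle ranges, at ratios of 1.65 and 1.68, and overlapped in the high range at 1.10. Fam111a stood apart in the low and middle ranges at 2.53 and 3.04 and overlapped in the high range at 1.91. Chaf1a, Chaf1b and Tipin stood apart in all 3 ranges, and Dtl and Pcna overlapped in all 3. How many of all genes stood apart in these ranges was not counted. Depth limits Fam111a most, with 15 to 136 UMIs per sample.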
